A study of Homo sapiens with 6 samples.

Results

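The oligoadenylate synthetases OAS1, OAS2 and OAS3, the IFIT proteins IFIT1, IFIT2 and IFIT3, the GTPase MX1, the ubiquitin-like modifier ISG15, its protease USP18 and the membrane protein IFI6 are antiviral effectors induced by interferon. These 10 genes were taken by symbol from a table of 37887 rows, and each symbol was found once. RNA-seq was done on MDA-MB-436, a triple-negative breast cancer line with mutant BRCA1, here carrying a stable MUC1 shRNA that tetracyclines induce. Control cells received 0.1% DMSO (3 libraries) and shMUC1 cells received 500 ng/ml doxycycline (DOX, 3 libraries). Titles give the control group as control shRNA, but its treatment label is vehicle and the design names one MUC1 shRNA cell population, which is the reading used. DOX on cells lacking the MUC1 shRNA was not analysed here, so DOX and silencing cannot be told apart. Both groups come from 1 line, and the labels give no length of treatment.

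Type I and type III interferons bind surface receptors whose JAK kinases activate STAT proteins. With IRF9 these enter the nucleus, bind the interferon-stimulated response element (ISRE) and raise transcription of antiviral genes. OAS enzymes sense double-stranded RNA and make oligoadenylates that trigger RNA decay. IFIT proteins bind viral RNA and curb its translation, and MX1 traps viral ribonucleoproteins. ISG15 is attached to proteins or secreted, and USP18 removes it and dampens receptor signaling. Cancer cells can keep some of these genes on at a low level without infection. The study asked whether MUC1-C maintains such chronic interferon signaling in triple-negative breast cancer.

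All 10 genes are protein coding. In GENCODE 29 (GRCh38), OAS1 (chr12:112906777-112933222), OAS3 (chr12:112938352-112973249) and OAS2 (chr12:112978395-113011723) lie side by side on the plus strand. IFIT2 (chr10:89283694-89309276), IFIT3 (chr10:89327894-89340971) and IFIT1 (chr10:89392546-89406486) form a second cluster on the plus strand. ISG15 (chr1:1001138-1014540, plus strand) and IFI6 (chr1:27666061-27672218, minus strand) are on chromosome 1, MX1 (chr21:41420304-41459214, plus strand) on chromosome 21 and USP18 (chr22:18149899-18177397, plus strand) on chromosome 22.

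An ISRE holds paired GAAA half-sites, which were looked for in the promoters of the effectors. RefSeq promoters (GRCh38.p14, 250 bases before to 50 bases after a transcription start) were listed for 7 of the 10 genes, and OAS2, IFIT2 and USP18 had no entry. GAAANNGAAA was searched on both strands, overlapping matches included. It was in 6 of the 7 genes, and in 3.57% of all 35116 promoters listed. A gene was counted if any of its listed promoters matched, so the first share is of genes and the second of promoters. The promoter of OAS1 had no match. Windows with 10 bases on either side are printed in the direction of transcription, since effectors that rose and effectors that fell both hold the motif. Capitals mark the motif, which reads TTTCNNTTTC where it lies on the other strand.
ISG15: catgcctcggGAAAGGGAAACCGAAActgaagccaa
IFIT3: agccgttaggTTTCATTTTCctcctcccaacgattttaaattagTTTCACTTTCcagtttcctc
IFIT1: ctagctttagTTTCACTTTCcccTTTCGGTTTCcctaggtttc
OAS3: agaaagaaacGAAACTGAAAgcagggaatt
IFI6: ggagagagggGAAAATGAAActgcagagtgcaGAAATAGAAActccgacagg
MX1: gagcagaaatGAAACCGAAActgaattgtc
The ISG15 window (chr1:1013374-1013409) holds 2 overlapping matches, the first at -113 from the start. The IFIT3 window (chr10:89327831-89327894) starts its first match at -156 and the IFIT1 window (chr10:89392497-89392539) at -116. The OAS3 window (chr12:112938321-112938350) has its match at -143, the IFI6 window (chr1:27672266-27672317, minus strand) its first at -115, and the MX1 window (chr21:41420559-41420588) its match 11 bases past the start. Further matches stood at another start of IFIT3 and of MX1, and elsewhere in the promoters of OAS3 and IFI6.

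MUC1, the silenced gene, had 93, 84 and 102 counts in control and 72, 51 and 34 counts in shMUC1 libraries. The groups did not overlap in counts per 1000000 (CPM, on library sizes scaled by TMM). Its log2 fold change was -0.84 (SE 0.214), with an edgeR adjusted p of 0.00119. Library totals ran from 18678307 to 27825546 counts. Of 15355 genes that passed the filter on low counts, 25.2% were higher and 23.6% lower in shMUC1 cells at an adjusted p under 0.05. As for the line itself, ESR1 and PGR had at most 12 counts in any library, while ERBB2 was at 44.7 CPM in control cells and vimentin (VIM) went from 718 to 417 CPM. Leukocyte markers numbered 5, with a summed level of 3.08 to 3.56 CPM in control and 5.64 to 8.70 CPM in shMUC1 libraries, mostly from CD14. CD14 was higher in shMUC1 cells, at a log2 fold change of 1.085 (edgeR adjusted p of 2.93e-06). PTPRC had 2, 6 and 10 counts in control and 21, 24 and 10 counts in shMUC1 libraries. It was also called higher, at a log2 fold change of 1.59 (edgeR adjusted p of 0.0113). CD79A had from 2 to 5 counts, CD3E was at 0 throughout, and LYZ was at 0 in 5 of 6 libraries. The 2 endothelial markers (CDH5 at 0 in 5 of 6 libraries) summed to 0.968 to 1.73 CPM and 0.155 to 0.484 CPM. PECAM1 had 36, 40 and 25 counts in control and 13, 4 and 9 counts in shMUC1 libraries. It was called lower, at a log2 fold change of -1.94 (edgeR adjusted p of 0.00032). The mitochondrially encoded share of counts was 3.74% ± 0.415 in control and 5.10% ± 0.139 in shMUC1 libraries (SD, n = 3 each). The part of these markers and of that share in the results below was not tested.

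The antiviral effectors differed in direction between shMUC1 and control cells. OAS3, IFIT1, IFIT2 and IFIT3 fell, ISG15 rose, and MX1, USP18 and IFI6 did not pass the test. OAS1 and OAS2 were too rare to be tested. Thus 4 of the 8 tested effectors were lower and 1 was higher, beside 23.6% and 25.2% of all tested genes. In CPM, the groups stood apart for the same 5 genes, beside 26.8% of all tested genes standing apart lower and 28.1% higher. IFIT3 alone changed more than 2-fold, beside 5.95% of all tested genes in either direction. The median log2 fold change was -0.43 over the 8 tested effectors and 0.001 over all tested genes.

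**Figure D1:**
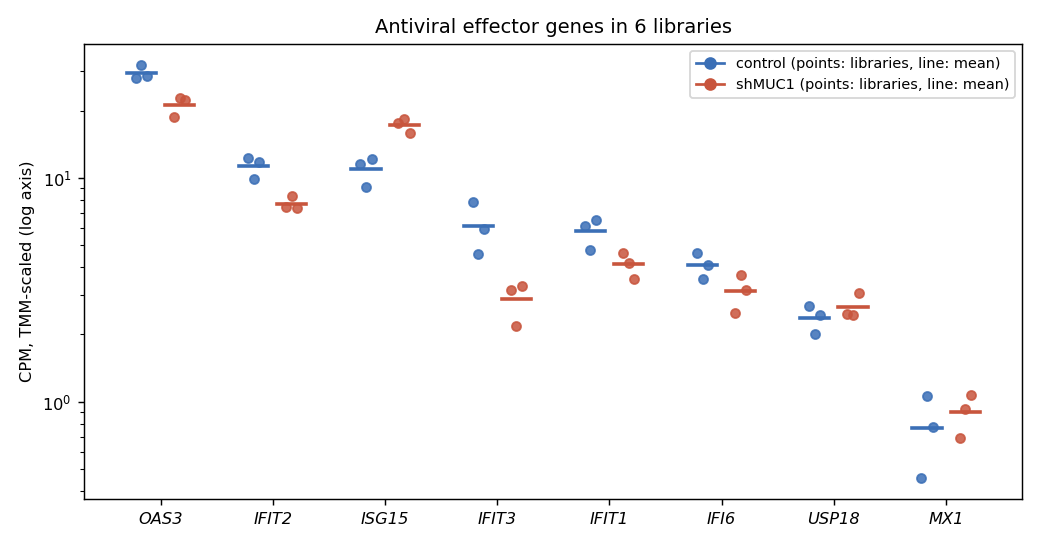
Level of the 8 tested antiviral effector genes in each of 6 libraries, as TMM-scaled CPM on a log axis (points are libraries, lines are group means, n = 3 each). All shMUC1 points lie below the control points for OAS3, IFIT2, IFIT3 and IFIT1 and above them for ISG15, and the groups overlap for IFI6, USP18 and MX1; CPM is not per length, so heights compare groups within a gene.

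Among the sensors, OAS3 was the one oligoadenylate synthetase with appreciable RNA. It stood at 27.9, 32.1 and 28.4 CPM in control and at 18.8, 22.7 and 22.3 CPM in shMUC1 libraries. Every shMUC1 library was below every control library. OAS3 fell by 0.48 on the log2 scale (SE 0.083, edgeR adjusted p of 8.63e-06), to 0.719 of the control level. Its cluster neighbors were nearly silent. OAS1 had 4, 1 and 0 counts in control and 4, 2 and 0 in shMUC1 libraries. OAS2 had 4, 0 and 0 counts in control and 8, 4 and 0 in shMUC1 libraries. A count of 0 allows up to 3 counts, equal to 0.109 to 0.161 CPM per library, if each count is a separate event. Most low values in these libraries were even, so the limit may be higher. Neither gene passed the filter, and a difference between groups was not detectable at this depth.

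Partners of the OAS enzymes were read from a list of 3 genes, all tested, of which 2 were higher and 1 was lower, beside 25.2% and 23.6% of all tested genes. OASL, a relative that binds double-stranded RNA without making oligoadenylates, stood at 4.61, 2.92 and 5.11 CPM in control and at 2.61, 2.87 and 1.93 CPM in shMUC1 libraries. It was lower in all 3, though the highest of these nearly met the lowest control library. The log2 fold change of OASL was -0.75 (SE 0.216, edgeR adjusted p of 0.00394). Without control replicate 3 its edgeR adjusted p was 0.0472. ABCE1, a ribosome recycling factor, was slightly higher at a log2 fold change of 0.11 (SE 0.032, edgeR adjusted p of 0.00300). PDE12, which degrades oligoadenylates, was higher by 0.13 on the log2 scale (SE 0.0445, edgeR adjusted p of 0.0125).

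IFIT1, IFIT2 and IFIT3 were all lower in shMUC1 cells, whereas IFIT5, a relative that binds RNA and is named after its value was seen, had a log2 fold change of 0.072 (edgeR adjusted p of 0.683) with overlapping groups. IFIT3 went from 7.85, 4.56 and 5.92 CPM in control libraries to 3.15, 2.17 and 3.28 CPM in shMUC1 libraries. Its highest shMUC1 value was thus under its lowest control value. IFIT3 encodes a partner that stabilizes IFIT1 on RNA. Its log2 fold change was -1.09 (SE 0.196, edgeR adjusted p of 1.29e-05), and 3.37% of tested genes had a lower one. IFIT2, which binds AU-rich double-stranded RNA, was at 12.3, 9.94 and 11.8 CPM in control and at 7.38, 8.31 and 7.36 CPM in shMUC1 libraries. These groups did not overlap, and the log2 fold change was -0.56 (SE 0.121, edgeR adjusted p of 0.00022). IFIT1 binds viral RNA whose cap lacks methylation. Its levels were 6.11, 4.76 and 6.51 CPM in control and 4.63, 4.16 and 3.55 CPM in shMUC1 libraries. The highest shMUC1 library came close to the lowest control library. IFIT1 fell by 0.48 on the log2 scale (SE 0.167, edgeR adjusted p of 0.0158). That call was lost without control replicate 1 (adjusted p 0.0552), without control replicate 3 (adjusted p 0.0833) and without shMUC1 replicate 3 (adjusted p 0.0733).

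Whether IFIT3 fell further than its neighbors was asked with ratios of counts within a library. The log2 ratio of IFIT3 to IFIT2 was -0.92 ± 0.247 in control and -1.44 ± 0.426 in shMUC1 libraries (SD, n = 3 each), with a two-sided exact permutation p of 0.1. That of IFIT3 to IFIT1 was 0.054 ± 0.268 and -0.53 ± 0.411 (SD, n = 3 each), with a two-sided exact permutation p of 0.2. With 3 libraries against 3 the smallest p this test can give is 0.1, so it could not reach 0.05 here. Over the 10 ratios compared, chosen after the values were seen, the adjusted p were 0.125 and 0.222.

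ISG15 moved against IFIT1, IFIT2, IFIT3 and OAS3. It had 253, 222 and 315 counts in control and 485, 474 and 296 counts in shMUC1 libraries, or 11.5, 9.12 and 12.2 CPM against 17.6, 18.4 and 15.9 CPM. The lowest shMUC1 library lay above the highest control library in CPM. ISG15 rose by a log2 fold change of 0.66 (SE 0.108, edgeR adjusted p of 2.72e-06), or 1.58-fold, and 5.59% of tested genes had a higher log2 fold change. The paper reports the opposite direction for this line, with ISG15 expression lowered by MUC1-C silencing in its supplementary figures. The assay and treatment time behind those figures are not given in the text read here, so the measures may be unlike. Why the directions differ was not tested.

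Ratios within a library do not depend on scaling between libraries. For each count of IFIT2 there were 0.941, 0.917 and 1.04 counts of ISG15 in control and 2.38, 2.21 and 2.16 in shMUC1 libraries. For each count of IFIT1 there were 1.89, 1.91 and 1.88 of ISG15 in control and 3.79, 4.43 and 4.49 in shMUC1 libraries. For each count of IFIT3 there were 1.47, 2 and 2.06 of ISG15 in control and 5.57, 8.46 and 4.85 in shMUC1 libraries. In all 3 ratios the groups lay far apart compared with the spread among libraries. The log2 ratios shifted by 1.22 for IFIT2, 1.16 for IFIT1 and 1.75 for IFIT3, and by 1.14 for OAS3 and 1.06 for IFI6. Each of these 5 had a two-sided exact permutation p of 0.1, the smallest possible, and 0.125 after adjustment. The shift was 0.51 against USP18 (two-sided exact permutation p of 0.1, adjusted 0.125) and 0.38 against MX1 (two-sided exact permutation p of 0.6, adjusted 0.6). All these ratios share ISG15 and were chosen after its rise was seen. They describe the same counts and are no independent evidence for that rise.

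**Figure D2:**
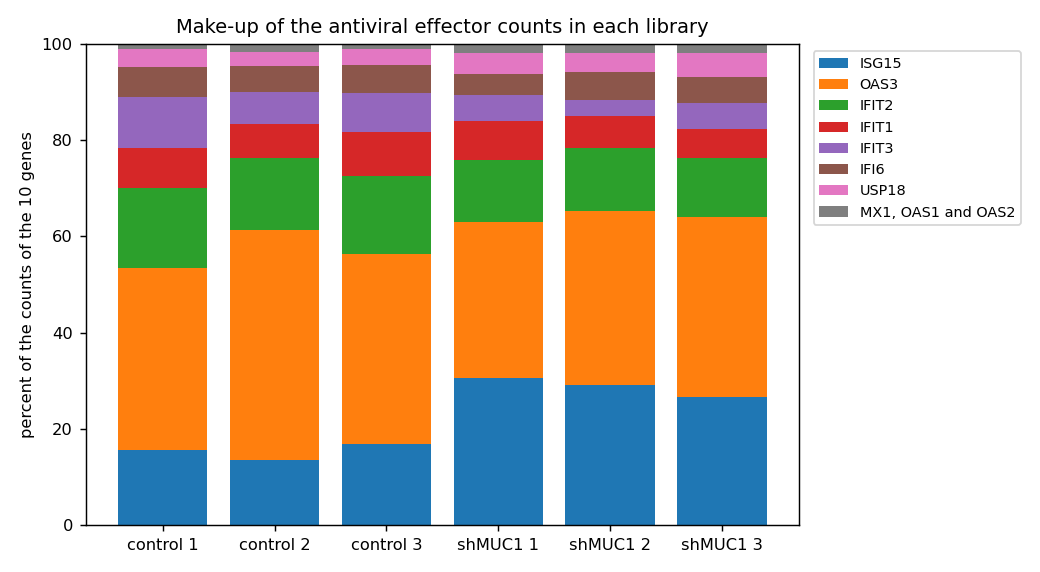
Share of the summed counts of the 10 genes taken by each gene, one stacked bar per library, from 0 to 100 percent, with MX1, OAS1 and OAS2 drawn together. ISG15 takes 13.6% to 16.9% of the bar in control and 26.7% to 30.5% in shMUC1 libraries; shares are of counts and not per length.

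The sum over the 10 genes was 73.8, 67.1 and 72.1 CPM in control and 57.5, 63.1 and 59.7 CPM in shMUC1 libraries. The total in CPM was therefore lower in all 3 shMUC1 libraries even though ISG15 was higher (71.0 ± 3.48 against 60.1 ± 2.78 CPM, SD, n = 3 each, two-sided exact permutation p of 0.1). CPM is not per length, so long genes weigh more in this sum. OAS3, with 8251 exonic bases, went from a mean of 29.45 CPM in control to 21.24 CPM in shMUC1 libraries. ISG15, with 941 exonic bases, went from 10.95 to 17.29 CPM. The fall is thus one of summed CPM. Per kilobase of exon, the mean of ISG15 rose from 11.6 CPM in control to 18.4 CPM in shMUC1 libraries. That rise exceeded the falls of the other effectors together, so the summed means per kilobase were higher in shMUC1 cells. This total per length was not tested between groups. ISG15 made up 15.4% ± 1.68 of these counts in control and 28.8% ± 1.95 in shMUC1 libraries (SD, n = 3 each, two-sided exact permutation p of 0.1). OAS3 made up 41.7% ± 5.38 and 35.3% ± 2.44 (SD, n = 3 each, two-sided exact permutation p of 0.1). Its groups nearly met, at 37.8% in control replicate 1 and 37.3% in shMUC1 replicate 3. Shares of one total are tied, so a higher ISG15 share lowers the others. Bulk RNA does not tell fewer cells expressing a gene from less RNA per cell.

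Of 6 listed partners that attach or may remove ISG15, 4 were tested, 1 was higher and 1 was lower, which is about the share over all tested genes (25.2% and 23.6%). HERC5, the main ISG15 ligase in human cells, was at 28.6, 22.1 and 25.8 CPM in control and at 18.5, 17.5 and 15.2 CPM in shMUC1 libraries. The groups did not overlap, and HERC5 fell by 0.57 on the log2 scale (SE 0.0929, edgeR adjusted p of 3.11e-06). Its neighbor and relative HERC6 stood at 10.8, 8.91 and 9.29 CPM against 11.5, 12.3 and 15.6 CPM. HERC6 was higher in every shMUC1 library, rising by 0.44 on the log2 scale (SE 0.12, edgeR adjusted p of 0.0026). UBE2L6, the conjugating enzyme, had a log2 fold change of -0.12 (95% interval from -0.39 to 0.14), and TRIM25, a ligase for ISG15 and ubiquitin, one of -0.068 (95% interval from -0.17 to 0.038). Their edgeR adjusted p were 0.471 and 0.300. UBA7, the activating enzyme, had from 3 to 10 counts per library and was not tested.

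USP18, which cleaves ISG15 from proteins, was at 2.69, 2.01 and 2.44 CPM in control and at 2.46, 2.45 and 3.06 CPM in shMUC1 libraries. The groups overlapped, and the log2 fold change was 0.15 with a 95% interval from -0.33 to 0.63 and an edgeR adjusted p of 0.633. USP18 has a near-identical copy, USP41, which had 0, 8 and 2 counts in control libraries and 0 in each shMUC1 library. Reads could be split between them, so the USP18 value is uncertain.

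MX1 had 10, 26 and 20 counts in control and 19, 24 and 20 counts in shMUC1 libraries. The counts of the control libraries spanned those of the shMUC1 libraries. Its log2 fold change was 0.20 with a 95% interval from -0.62 to 1.02 and an edgeR adjusted p of 0.719, which spans a fall as well as a rise. IFI6, a small membrane protein that limits flavivirus replication, was at 4.61, 3.53 and 4.10 CPM in control and at 2.50, 3.69 and 3.17 CPM in shMUC1 libraries. Of the shMUC1 libraries, 1 lay within the control range and the other two below it. The log2 fold change of IFI6 was -0.39 (SE 0.196, 95% interval from -0.79 to 0.0083, edgeR adjusted p of 0.0999). It passed the test only without shMUC1 replicate 2, at -0.54 with an edgeR adjusted p of 0.0468.

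**Figure D3:**
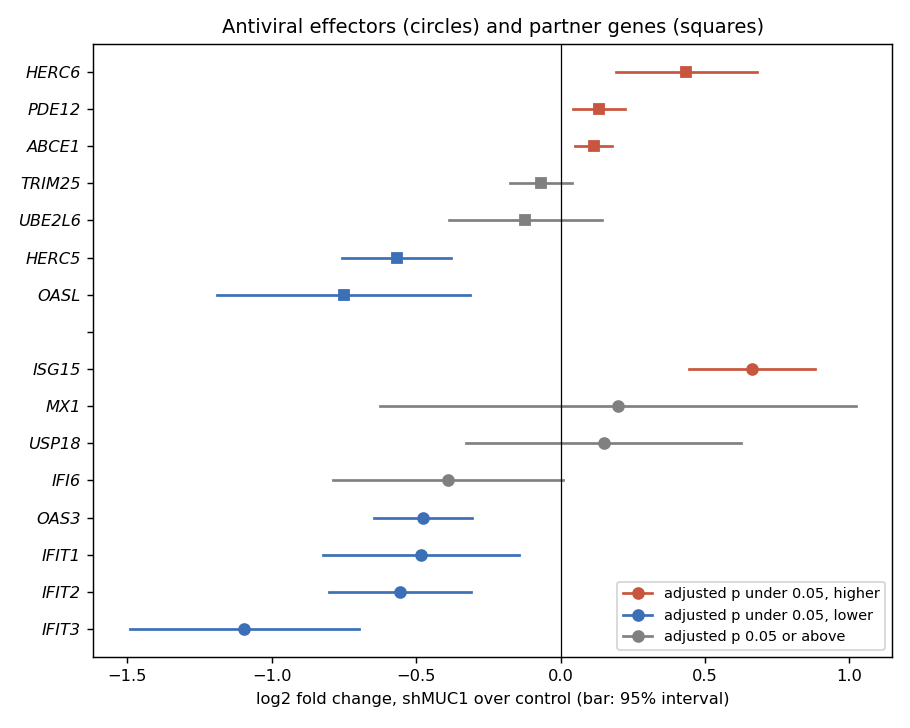
Log2 fold change of shMUC1 over control with its 95% interval, for the 8 tested antiviral effectors (circles) and the tested partners of OAS and ISG15 (squares), colored by direction where the adjusted p was under 0.05. IFIT3 at -1.09 and ISG15 at 0.66 are the ends of the effector range, and the intervals of MX1, USP18 and IFI6 cross 0.

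**Figure D4:**
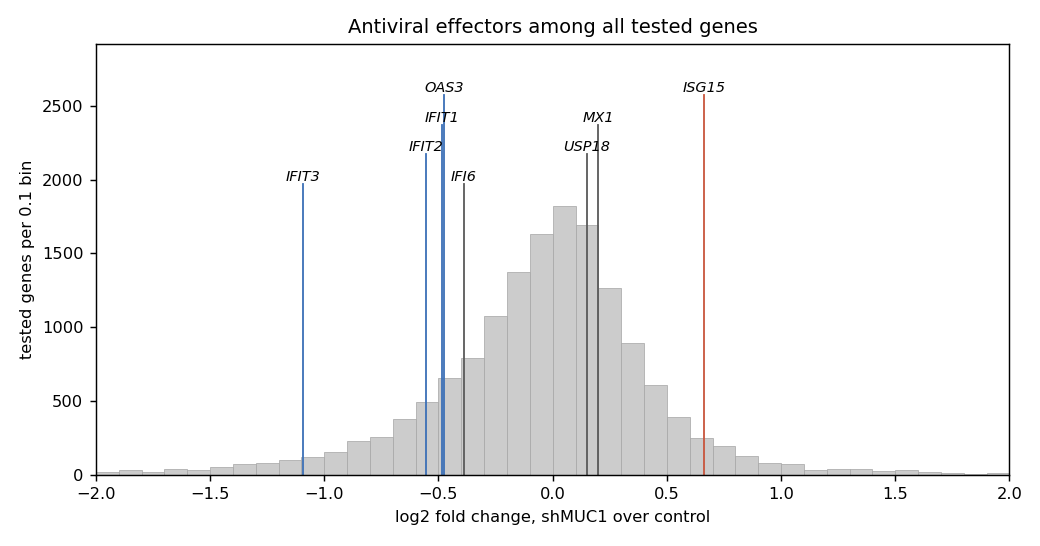
Histogram of log2 fold changes of all tested genes in bins of 0.1, with a labeled line at each tested antiviral effector; the axis runs from -2 to 2 and leaves out 123 genes beyond it. IFIT3 lies in the left flank, ISG15 in the right flank, and MX1 and USP18 within the central bulk.

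Levels of different genes were compared per kilobase of annotated exon (CPM per kb). In control cells ISG15 came first at 11.6 ± 1.73 CPM per kb, then IFI6 at 4.72 ± 0.622 and OAS3 at 3.57 ± 0.276 (SD, n = 3 each). IFIT2 at 2.76 ± 0.30 and IFIT3 at 2.31 ± 0.626 CPM per kb overlapped between libraries, as did IFIT1 at 1.26 ± 0.198 and USP18 at 1.12 ± 0.161 (SD, n = 3 each). MX1 followed at 0.0889 ± 0.0355 CPM per kb, with OAS1 and OAS2 below it and overlapping. Apart from those 3 pairs, neighbors in this order did not overlap. In shMUC1 cells ISG15, IFI6, OAS3 and IFIT2 kept ranks 1 to 4, at 18.4, 3.61, 2.57 and 1.87 CPM per kb. IFIT3 moved below USP18, at 1.09 ± 0.229 and 1.25 ± 0.166 CPM per kb (SD, n = 3 each), but those libraries overlapped, as did IFIT3 and IFIT1 at 0.891. The exon length joins all annotated isoforms, so the levels per kb depend on which isoforms are made.

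Signal receipt upstream of these genes was read from 3 further lists. Of 13 interferon genes none was tested, 4 had no counts, and the most in any library was 10 counts, of IFNE. IFNB1 had 2 counts in control replicate 1 and 0 elsewhere. Of 11 receptors and transducers, all tested, 1 was higher and 3 were lower, beside 25.2% and 23.6% of all tested genes. The other 7 did not pass, among them the type I receptor genes IFNAR1 and IFNAR2. Their log2 fold changes were -0.042 and -0.14 (edgeR adjusted p of 0.403 and 0.704). The genes IFNE, IFNB1, IFNAR1, IFNAR2, JAK1, JAK2, PTPN1, PTPN2, IRF2, IRF3 and IRF7 are named after their values were seen. The kinase JAK1 was higher, at a log2 fold change of 0.32 (SE 0.0316, edgeR adjusted p of 7.51e-11), and its relative JAK2 lower, at -0.22 (SE 0.0734, edgeR adjusted p of 0.0132). IFNGR1, a chain of the interferon gamma receptor, stood at 40.8, 41.1 and 40.8 CPM in control and at 24.5, 26.8 and 23.6 CPM in shMUC1 libraries. It fell by 0.71 on the log2 scale (SE 0.0688, edgeR adjusted p of 5.26e-11), with groups far apart. IL10RB, shared by the receptors for type III interferons and interleukin 10, had 23, 27 and 19 counts in control and 5, 21 and 5 in shMUC1 libraries. These overlapped in CPM, although the log2 fold change was -1.16 (SE 0.473) with an edgeR adjusted p of 0.0416. STAT2 and IRF9, which help form the factor that binds the ISRE, had log2 fold changes of -0.015 (SE 0.06) and -0.29 (SE 0.295), with edgeR adjusted p of 0.855 and 0.441. IRF9 had from 28 to 44 counts per library. Among 4 interferon regulatory factors, all tested (25.2% of all tested genes were higher), IRF2, IRF3 and IRF7 were higher, with log2 fold changes of 0.29, 0.31 and 0.54 and edgeR adjusted p of 0.0109, 0.0117 and 0.0301. IRF1, an activator of antiviral genes, had a log2 fold change of -0.13 (SE 0.138, edgeR adjusted p of 0.465). The paper reports lower IRF1 expression in triple-negative cells after MUC1-C was silenced. Why no such fall was called here was not tested.

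Inhibitors of the pathway numbered 6, of which 5 were tested, 3 were higher and none was lower, beside 25.2% and 23.6% of all tested genes. SOCS3, which blocks JAK kinases at cytokine receptors, went from 10.1, 11.2 and 12.2 CPM in control to 27.1, 26.5 and 25.2 CPM in shMUC1 libraries. Every shMUC1 library had more than any control library. Its log2 fold change was 1.23 (SE 0.0917, edgeR adjusted p of 5.06e-14). PTPN1 and PTPN2, phosphatases that act on JAK kinases, were also higher, at log2 fold changes of 0.46 and 0.36 with edgeR adjusted p of 7.65e-15 and 7.71e-07.

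Other interferon-induced antiviral effectors were called at about the rate of all genes. Of 40 fixed symbols 39 were in the table, 29 were tested, 7 were higher, 7 were lower and 15 did not pass, beside 25.2% higher and 23.6% lower over all tested genes, and the median log2 fold change was 0.054. IFI44, a cytoplasmic protein induced by interferon, fell from 4.97, 3.57 and 4.72 CPM in control to 1.30, 2.29 and 2.37 CPM in shMUC1 libraries. Its groups did not overlap, and its log2 fold change was -1.17 (SE 0.225, edgeR adjusted p of 3.77e-05). DDX60, a helicase linked to RNA sensing, was lower by a log2 fold change of -0.60 (SE 0.115, edgeR adjusted p of 3.22e-05). PARP9 and DTX3L encode partners in one ADP-ribosyltransferase and ubiquitin ligase complex and share 217 exonic bases on opposite strands. PARP9 rose from 49.8, 50.1 and 50.1 CPM to 93.3, 91.1 and 82.2 CPM. DTX3L rose from 210, 204 and 200.4 CPM to 313, 327 and 303 CPM. Both had groups far apart, with log2 fold changes of 0.83 (SE 0.0518) and 0.62 (SE 0.035) and edgeR adjusted p of 3.34e-16 and 2.37e-17.

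**Figure D5:**
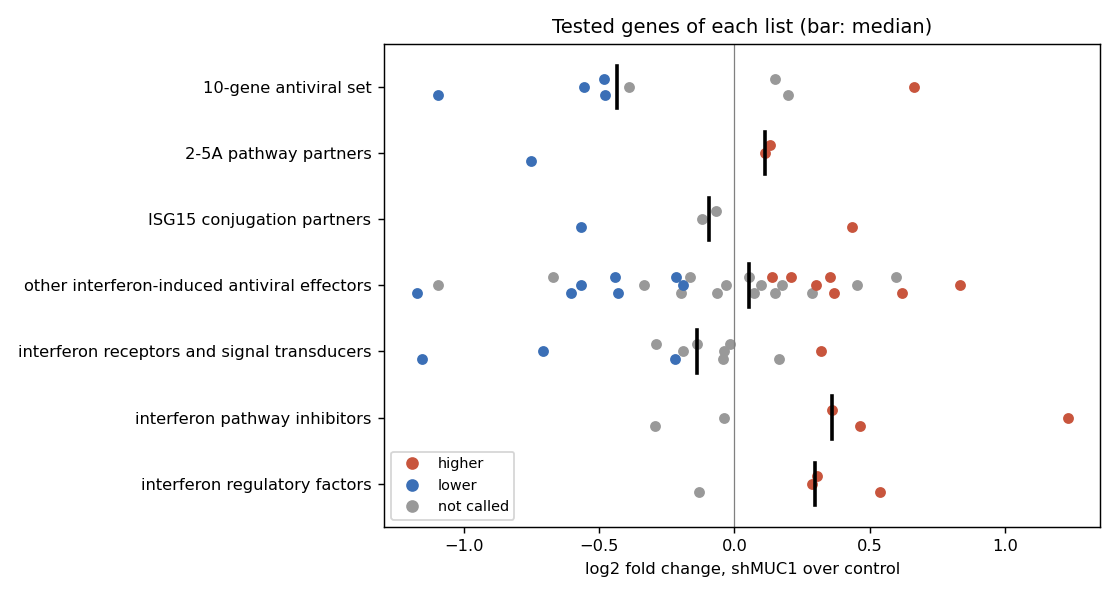
Log2 fold change of every tested gene in the antiviral set and in 6 lists of pathway genes, colored by call at an adjusted p under 0.05, with a black bar at each median. The antiviral set has its median at -0.43, with ISG15 as its single higher gene, and the list of other antiviral effectors spreads from -1.17 to 0.83 around 0.054.

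The ISRE-like motif was found in genes of either direction. Of 432 tested genes with GAAANNGAAA in a listed promoter, 24.8% were higher and 25% lower in shMUC1 cells, and their median log2 fold change was 0.009. Of 10755 tested genes with listed promoters and no match, 27.5% were higher and 24.3% lower, with a median of 0.011. Among the effectors, ISG15 rose and IFIT1, IFIT3 and OAS3 fell with the motif present in each. A match is a description of these letters and does not show that a factor binds there.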

How the data were processed

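RNA-seq was performed on 6 MDA-MB-436 libraries made with a stranded poly(A) kit. Raw counts, 1 column for each library and 1 row for each symbol, are what the authors deposited. The submitters' processing notes name CASAVA 1.8.2, STAR 2.7.9a, featureCounts, DESeq2 1.24.0 and GRCh38.p7. The strand setting and annotation release are not given in the sources used here. IFIT2 shares 8.68% of its exonic bases with AL353751.1 on the same strand and 1.58% with LIPA on the opposite strand. ISG15 shares 3.83%, MX1 2.74% and OAS1 1.86% with genes on the opposite strand. Reads could be shared at all of these overlaps.

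Counts were tested with the quasi-likelihood method of edgeR 4.0.16 (R 4.3.3), two-sided, after filterByExpr and TMM, with group as the only term and Benjamini-Hochberg adjustment over 15355 genes. SE came from the F statistic. Scripts were tested on simulated data. Alternatives used DESeq2 1.42.0 and limma 3.58.1. The labels give triplicate cultures without saying whether these were independent, so p-values may measure technical spread. Within groups, chi-square divided by its degrees of freedom was 2.79 to 5.55 between libraries, which gave no sign of a duplicated library. Of values from 1 to 20, 68.9% to 70.5% were even, so halved counts were also tried. Floors cover counting error only, whereas the 95% intervals of fold changes include the spread between libraries.

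Members and lists were chosen with earlier results of these data known. All 10 members were named. List genes were named where they changed over 1.5-fold with an adjusted p under 0.05, along with direct partners of OAS and ISG15, MUC1, IRF1, STAT2 and IRF9 whatever their values. A spreadsheet error made 14 gene names into dates, and C19orf66 was the 1 listed symbol with no match. One gene of the OAS partner list is not reported here and was left out of its counts.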

Additional observations from a re-analysis of the deposited data

How the results depend on the processing

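Across 16 alternatives (2 other scalings, 2 other low-count filters, DESeq2, limma-voom, a replicate block, halved counts, each library left out, and, chosen after seeing the data, mitochondrially encoded genes left out and libraries thinned to the smallest total), ISG15 was the 1 higher effector each time. From 3 to 5 effectors were lower. OAS3, IFIT2, IFIT3 and ISG15 kept their direction and call in all 16, within -0.53 to -0.39, -0.64 to -0.50, -1.27 to -0.88 and 0.55 to 0.74 on the log2 scale. IFIT1 stayed negative, from -0.60 to -0.39, and lost its call in 3 of the 16, each leaving out 1 library. The median over tested effectors was -0.126 with no low-count filter, since OAS1 and OAS2 then enter it, and ranged from -0.506 to -0.312 without one library. MX1 turned to -0.049 without control replicate 1 (range without one library -0.049 to 0.511) and had no value with a mean of at least 50 counts. Replicate numbers did not pair libraries: same-numbered libraries deviated with correlations of 0.0167, -0.0311 and -0.036. With the replicate block 1 effector was higher and 4 were lower, and no effector changed call. Depth limits OAS1, OAS2 and MX1 most, at 26 counts or fewer per library.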

Other observations

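The 7-base word ATCAGTA in annotated 3' untranslated regions (GENCODE 29) was looked up with earlier results of these data known, so it is not an independent choice. Of 1661 tested genes with the word, 43.2% were lower and 20.7% higher in shMUC1 cells, and the median log2 fold change was -0.12. Of 11362 tested genes with an annotated region and no such word, 22.4% were lower and 29% higher, with a median of 0.027. The word was found in none of the 10 antiviral effectors, of which OAS1 and OAS2 were not tested. Of 13023 tested genes with an annotated region, 12.8% hold it. A set of 10 genes is too small to set a count of 0 apart from that share. The length of the regions was not matched between genes with and without the word. The word was read on the same libraries, so these values are a description and no test.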
